A study of Homo sapiens with 4 samples.

Results

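The genes described here set where a cell stands between the epithelial and the mesenchymal state: the transcription factors ZEB1, ZEB2, SNAI1, SNAI2, TWIST1 and GRHL2, and the surface and matrix genes CDH1, EPCAM, CDH2 and FN1. They are 10 of 24934 gene rows (23284 distinct symbols) in a table of mRNA levels from HEK-293 cells, an established cell line from human embryonic kidney. The list was written with earlier results of these data in view: ZEB1 was the only developmental factor seen more than 1.5-fold higher with siRNAs against ZSCAN5A, so its rise is given as a description and not as a test. The cells received 10 nM of 1 of 4 siRNAs for 48 h. These were si4 or si5 against ZSCAN5A, si1 against ZSCAN5B, or a scrambled sequence, and the ZSCAN5 genes encode zinc finger proteins with a SCAN domain. Each siRNA is represented by 1 library, so the scrambled control is a single library in every comparison, and no difference has a replicate check. All 4 groups are the same cell line, and all received lipid transfection.

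Epithelial cells hold to each other through E-cadherin, the product of CDH1, and through EPCAM. In the epithelial to mesenchymal transition the ZEB, SNAI and TWIST factors bind E-box sequences in epithelial genes and repress them, while mesenchymal genes such as CDH2 (N-cadherin) and FN1 (fibronectin) are expressed. GRHL2 works in the other direction, as an activator of epithelial genes. The ZEB genes and the miR-200 family of microRNAs repress each other, and TGF-beta signalling through SMAD proteins is a known inducer of the ZEB and SNAI genes.

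The sequences that bear on these genes are the siRNAs, because of matches to their seeds in untargeted transcripts, and the miR-200 family, because its sites mark ZEB1 and ZEB2. In the siRNA target sequences, taken from the oligo list of the study, capitals mark the 7 bases opposite the seed of the guide strand.
si4: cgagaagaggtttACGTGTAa
si5: aagctagtcatccACAAGAGa
si1: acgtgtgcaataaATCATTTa
No match to the si4 seed was present in the 3' UTR of ZEB1 (GENCODE 44 on GRCh37, 2540 bases), and 1 match each to the si5 and si1 seeds was. A match to the si5 seed occurs in 15.6% and a match to the si1 seed in 32.0% of 2398 protein-coding 3' UTRs whose length is within 20% of that of ZEB1. ZEB2 had 0, 1 and 2 matches to si4, si5 and si1. SNAI2 had 1 match to si1, and the other 7 genes had none to any of the 3 seeds. Of UTRs near the length of ZEB2, 33.5% held a si5 match and 54.4% a si1 match. Near the length of SNAI2, 16.1% held a si1 match. A match is a description of letters and was not tested as a site of action.

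The mature miR-200 sequences from RefSeq (GRCh38.p14) fall into 2 groups by seed, bases 2 to 8 in capitals. The first 3 share 1 seed and the last 2 the other.
hsa-miR-200b-3p: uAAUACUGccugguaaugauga
hsa-miR-200c-3p: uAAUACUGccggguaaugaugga
hsa-miR-429: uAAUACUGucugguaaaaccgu
hsa-miR-200a-3p: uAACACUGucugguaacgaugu
hsa-miR-141-3p: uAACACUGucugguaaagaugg
The 3' UTR of ZEB1 held 9 matches to these seeds on the transcript strand, 6 to CAGTATT and 3 to CAGTGTT. ZEB2, with a 3' UTR of 5370 bases, held 9 as well, 5 and 4 of each. As many as 9 were present in 1 of the 2398 UTRs near the length of ZEB1, which is ZEB1 itself, and in 2 of 1159 near the length of ZEB2. FN1 held 2 matches, SNAI2 and GRHL2 held 1 each, and SNAI1, TWIST1, CDH1, CDH2 and EPCAM held none. At least as many were present in 1.12% of UTRs near the length of FN1, 24.4% near that of SNAI2 and 53.4% near that of GRHL2. The first matches to each seed are shown with the match in capitals, on GRCh37 and in the direction of the transcript, plus strand for ZEB1 and minus strand for ZEB2.
ZEB1 chr10:31816553-31816575: tatcttatCAGTATTatcactct
ZEB1 chr10:31816647-31816669: atccgcttCAGTATTttattatg
ZEB1 chr10:31816966-31816988: atcagaatCAGTGTTtgtgattg
ZEB1 chr10:31817717-31817739: tgatttaaCAGTGTTatgttaac
ZEB2 chr2:145146796-145146818: attttgtaCAGTGTTaaggccta
ZEB2 chr2:145146612-145146634: ccatacatCAGTATTtttattat
The rows for MIR200A, MIR200B, MIR200C, MIR141 and MIR429 were listed at 0 in every library. These are libraries of mRNA, and mature microRNAs were not analysed here.

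Levels are given as FPKM, fragments scaled to transcript length and to the mapped fragments of the library, so that genes of different length can be compared. Steps between low values gave the depth of si4, si5 and si1 as 1.09, 1.54 and 1.02 times that of the control, and with annotated lengths between 54000000 and 83400000 fragments per library. These are estimates, and they lie outside the range of reads per sample stated in the study's methods, above it for si5 and below it for the others. ZSCAN5A was at 30.2% and 29.5% of the control with si4 and si5, and at 105% with si1. ZSCAN5B was at 105% of the control with si1, at 0.0948 against 0.0903 FPKM from 16 and 15 fragments (exact 95% interval 48.6% to 228%, counting error alone), and at 36.6% and 73.4% with si4 and si5, from 6 and 17 fragments. As its target was not lower there by these few fragments, the si1 sample is referred to as the library labelled ZSCAN5B knockdown. The study itself reports less ZSCAN5B transcript by qRT-PCR and less protein by Western blot after si1. By qRT-PCR it reports some over-expression of ZSCAN5B after si4, so no lowering of ZSCAN5B is read from the few fragments with si4 and si5. Of 14 markers of fibroblasts, blood, endothelium and trophoblast, 13 were found, and their summed level was 6.80, 7.39, 9.15 and 5.29 FPKM in si4, si5, si1 and the control. Most of it was CGA, the alpha subunit of chorionic gonadotropin (2.82 to 5.66 FPKM), and the globin gene HBA1 (0.650 to 2.17 FPKM), both lowest in the control. HBB and PSG1 were listed at 0 in every library, and between 2 and 5 of the 13 were at 0 in each. Their part in the results was not tested. In bulk RNA, fewer cells of a type and less RNA per cell cannot be told apart.

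The cells carried both epithelial and mesenchymal transcripts. EPCAM, an epithelial adhesion molecule, was the highest of the 10 genes, at 84.3, 92.6, 102 and 91.1 FPKM in si4, si5, si1 and the control. CDH2 followed at 33.8 to 35.1 FPKM and FN1 at 29.7 to 43.2 FPKM, and these 2 ranges overlapped. TWIST1 stood apart from its neighbours at 8.16 to 9.28 FPKM. ZEB1 (3.33 to 6.14 FPKM) overlapped with ZEB2 (3.63 to 4.72 FPKM), and ZEB2 with CDH1 (3.17 to 3.77 FPKM), which stood apart from SNAI1. SNAI1 reached at most 0.740 FPKM and SNAI2 at most 0.468 FPKM, with ranges that did not meet. GRHL2 was listed at 0 in all 4 libraries.

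**Figure D1:**
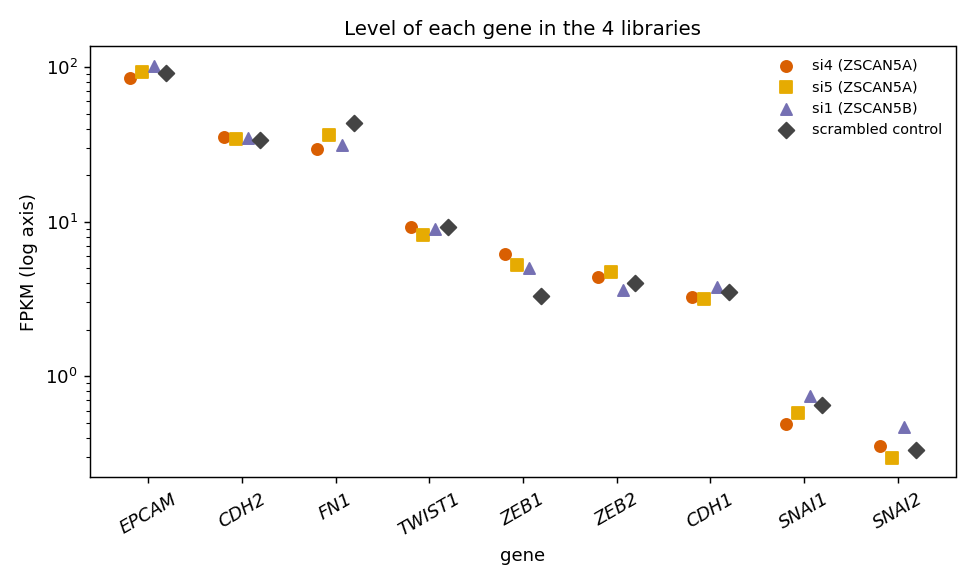
Level of 9 of the 10 genes in FPKM on a log axis, 1 point for each of the 4 libraries, ordered by median level; GRHL2, listed at 0 throughout, is not drawn. The control point of ZEB1 (3.33 FPKM) lies below its 3 siRNA points (5.01 to 6.14 FPKM), and the control point of FN1 (43.2 FPKM) lies above its 3 siRNA points (29.7 to 36.3 FPKM).

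The balance of the 2 cadherins was on the side of N-cadherin in every library. The CDH2 level was 10.7, 10.8, 9.27 and 9.62 times the CDH1 level in si4, si5, si1 and the control. The other epithelial adhesion gene, EPCAM, was at 25.8 to 29.2 times the CDH1 level. As the higher ZEB1 level chose the list, the balance of the 2 ZEB genes is given as a description. The ratio of the ZEB1 to the ZEB2 level was 0.826 in the control and 1.41, 1.11 and 1.38 in si4, si5 and si1, so that ZEB2 was the higher of the 2 in the control alone.

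ZEB1 (chr10:31608101-31818742 on hg19, plus strand) encodes a zinc finger and homeodomain repressor of CDH1. Its level was 6.14 FPKM with si4, 5.25 with si5 and 5.01 with si1, against 3.33 in the control. All 3 siRNA libraries were above the control. Relative to the control, the level was 1.85 with si4 (exact 95% Clopper-Pearson interval 1.71 to 1.99), 1.58 with si5 (1.47 to 1.70) and 1.51 with si1 (1.39 to 1.63). These intervals cover counting error alone, from an estimated 1066 fragments in the control and 1631 to 2597 in the others, and the si1 interval includes 1.5.

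Genes were counted as past the limit when the mean of si4 and si5, or the si1 level, differed from the control by more than 1.5-fold, with at least 1 FPKM in a library of the comparison and neither side at 0. Of the 10 genes, 7 reached the expression limit in each comparison. With the ZSCAN5A siRNAs, 1 of the 7 was past the limit upward, ZEB1, where 0.677% of 12993 genes tested were, and none was past it downward, where 3.11% of all genes were. In either direction, 3.79% of all genes were past it. The log2 ratio of ZEB1 was 0.78, rank 42 from the top. The nearest of the 10 genes inside the limit were ZEB2 upward, at 1.13 times the control, and FN1 downward, at 0.765 times. With the library labelled ZSCAN5B knockdown, ZEB1 was again the 1 gene past the limit upward (log2 ratio 0.59, rank 109 from the top), beside 0.844% of 12921 genes, and none was past it downward, beside 3.17% (4.01% in either direction). ZEB1 is also among the 19 genes (0.147% of 12890) past the limit upward in each of the 3 siRNA libraries singly. Since the rule for the list used this value, no more is read from these counts.

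**Figure D2:**
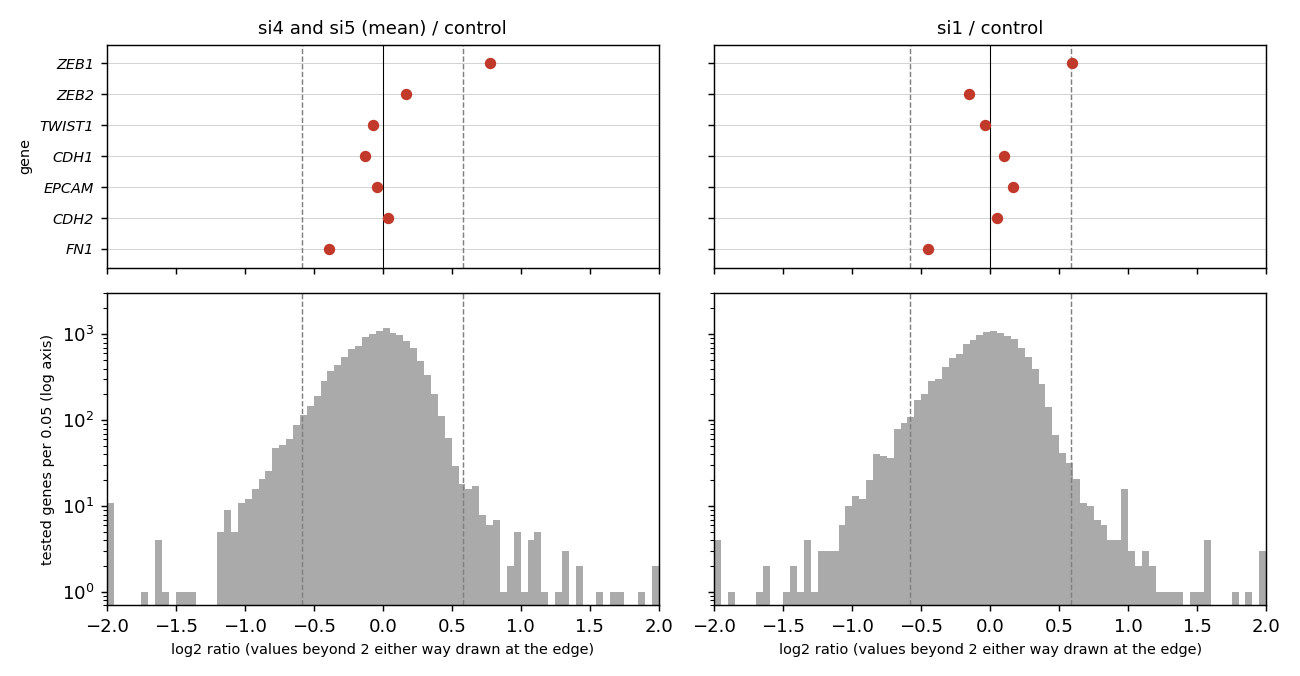
Upper panels: log2 ratio to the control of the 7 tested genes. Lower panels: number of all tested genes per 0.05 of log2 ratio (log axis), with dashed lines at 1.5-fold. ZEB1 lies beyond the right line at 0.78 in the left panel and on it at 0.59 in the right panel, and FN1 is the lowest of the 7 in both at -0.39 and -0.45.

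The spread between si4 and si5, 2 siRNAs against the same gene, gives a scale for differences between siRNA libraries. It holds nothing of the single control library, so it does not measure the error of differences from that control. Between si4 and si5, genes with a mean of 3 to 10 FPKM had a median absolute log2 difference of 0.12 and a 95th percentile of 0.44. ZEB1 itself differed by 0.23 between si4 and si5. Its log2 difference from the control was 0.88 with si4, 0.66 with si5 and 0.59 with si1, given as a description since the list was chosen on this rise.

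Around ZEB1, 7 other genes within 1000000 bases reached at least 1 FPKM in a library. Their log2 ratios were between -0.28 and 0.15 with the ZSCAN5A siRNAs. The nearest was ZEB1-AS1, a noncoding RNA read from the opposite strand at the start of ZEB1. Its level was 7.03, 7.30, 6.48 and 6.46 FPKM in si4, si5, si1 and the control, a log2 ratio of 0.15 with the ZSCAN5A siRNAs and 0.00 with si1. Its row (chr10:31605457-31608024) ends before that of ZEB1 begins. Whether the counting used strand is not given in the sources used here. KIF5B, a kinesin heavy chain gene on the other side, had a log2 ratio of -0.07 with the ZSCAN5A siRNAs.

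Over the 4 libraries, the 5 profiles most like ZEB1 among 12411 rows with at least 1 FPKM in each were LZTFL1, DPH3, ZNF480, GRWD1 and RABGGTB. Likeness was the Euclidean distance between log2 FPKM profiles centred on their own mean, and it was 0.06 for LZTFL1 and 0.19 for RABGGTB. LZTFL1, which encodes a regulator of ciliary trafficking, had 9.26, 7.72, 7.80 and 4.99 FPKM in si4, si5, si1 and the control. DPH3, a gene of diphthamide synthesis, had 16.7, 13.7, 12.8 and 9.51 FPKM. Of the other members, CDH2 ranked 4439 and ZEB2 4548 in likeness, and FN1 ranked 11573, the last of them.

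ZEB2 (chr2:145141942-145277958, minus strand), the paralogue of ZEB1, had 4.36, 4.72, 3.63 and 4.03 FPKM in si4, si5, si1 and the control. The ZSCAN5A libraries were above the control and the si1 library below it. The ratios to the control were 1.08 (1.02 to 1.15), 1.17 (1.11 to 1.24) and 0.900 (0.845 to 0.960), so each differed from 1 by more than counting error and none reached the limit. The log2 difference of 0.17 with the ZSCAN5A siRNAs lies within the 95th percentile of the si4 to si5 spread at this level. That spread is between single siRNA libraries and does not include the control.

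TWIST1 (chr7:19155091-19157295, minus strand) encodes a basic helix-loop-helix factor. It had 9.28, 8.16, 8.94 and 9.17 FPKM in si4, si5, si1 and the control, and the control lay inside the range of the others. Its log2 ratio was -0.07 with the ZSCAN5A siRNAs and -0.04 with si1. The intervals of the si4 ratio (0.920 to 1.12) and the si1 ratio (0.883 to 1.08) include 1, and that of the si5 ratio (0.813 to 0.977) does not.

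SNAI1 (chr20:48599513-48605420, plus strand), the Snail zinc finger repressor, had 0.491, 0.576, 0.740 and 0.650 FPKM in si4, si5, si1 and the control. These values rest on 47, 78, 66 and 57 fragments, read from whole-number proportions between the libraries. The ratios were 0.755 (0.502 to 1.13) with si4, 0.886 (0.622 to 1.27) with si5 and 1.14 (0.787 to 1.65) with si1. No difference from the control was detectable at this depth.

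SNAI2 (chr8:49830239-49833999, minus strand), which encodes Slug, had 0.354, 0.297, 0.468 and 0.332 FPKM in si4, si5, si1 and the control, from 43, 51, 53 and 37 fragments. The si1 library was the highest, at 1.41 times the control, and its interval of 0.909 to 2.21 includes 1. Neither SNAI gene reached 1 FPKM in any library, so neither entered the counts above. GRHL2 (chr8:102504668-102681952, plus strand), the epithelial activator, was listed at 0 throughout and has no ratio.

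CDH1 (chr16:68771195-68869444, plus strand) is the classic target of the ZEB and SNAI repressors. Its level was 3.27 FPKM in the si4 library and 3.17 in the si5 library, with 3.77 in si1 and 3.52 in the control. Both ZSCAN5A libraries were below the control and the si1 library above it. The ratios were 0.930 (0.848 to 1.02) with si4, 0.902 (0.828 to 0.983) with si5 and 1.07 (0.978 to 1.17) with si1. Thus beside a ZEB1 level 1.71 times the control with the ZSCAN5A siRNAs, that of CDH1 was 0.916 times the control, and beside 1.51 times with si1 it was 1.07 times.

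EPCAM (chr2:47596287-47614167, plus strand) gave ratios of 0.926 (0.897 to 0.956) with si4, 1.02 (0.988 to 1.05) with si5 and 1.12 (1.09 to 1.16) with si1. The si4 and si1 libraries thus lay on opposite sides of the control. Less the median of genes of like length and GC content (0.15), the log2 ratio of 0.17 with si1 was 0.02. Less that median with the ZSCAN5A siRNAs (0.10), the ratio of -0.04 was -0.15. CDH2 (chr18:25530930-25757445, minus strand) varied least between libraries among the 7 tested. It had 35.1, 34.3 and 34.9 FPKM in si4, si5 and si1 and 33.8 in the control, with ratios between 1.01 and 1.04.

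FN1 (chr2:216225179-216300791, minus strand) encodes the matrix protein fibronectin, a common readout of the mesenchymal state. Its level was 29.7 FPKM with si4, 36.3 with si5 and 31.5 with si1, against 43.2 in the control. All 3 siRNA libraries were below the control. The ratios were 0.689 (0.674 to 0.703) with si4, 0.841 (0.825 to 0.857) with si5 and 0.730 (0.714 to 0.746) with si1, and none was past the limit. FN1 ranked 1206 from the bottom with the ZSCAN5A siRNAs and 833 from the bottom with si1. On the log2 scale its differences were -0.54, -0.25 and -0.45, and those with si4 and si1 exceed 0.39, the 95th percentile of the si4 to si5 spread for genes of 10 FPKM or more. That spread does not include the control library.

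FN1 has a long transcript of 8390 bases with 50.8% G and C, and genes of that kind were lower in the siRNA libraries as a whole. The 275 genes in the same bin of length and GC content had a median log2 ratio of -0.25 with the ZSCAN5A siRNAs, and the 274 in the si1 comparison one of -0.23. The log2 ratio of FN1 less this median was -0.13 and -0.22. For ZEB1, with 5937 bases and 38.9% G and C, the bin median was 0.03 and 0.02, and 0.75 and 0.57 remained. The value of 0.57 is under the 1.5-fold limit.

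**Figure D3:**
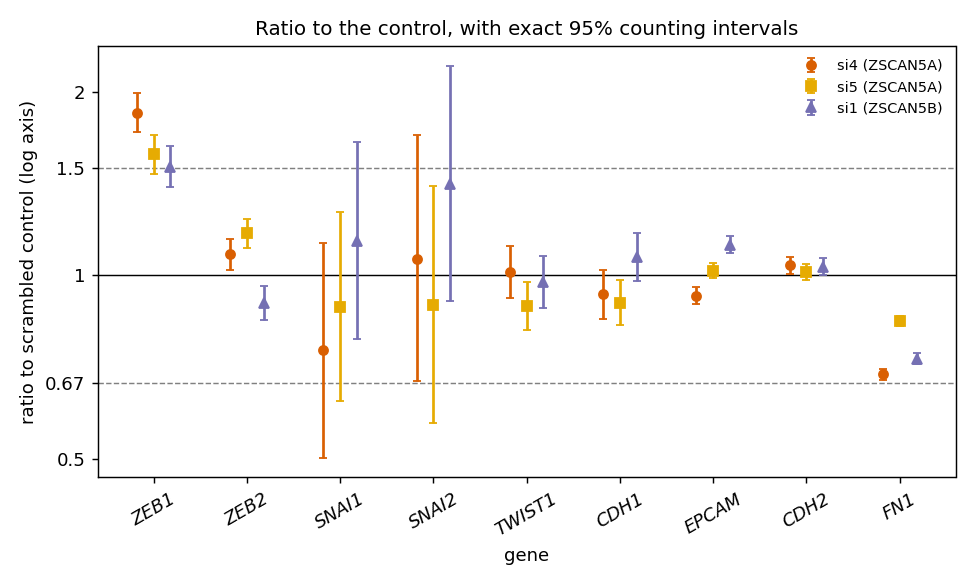
Ratio of each siRNA library to the control on a log axis for the 9 genes with a value, with exact 95% counting intervals and dashed lines at 1.5-fold either way. The ZEB1 points (1.51 to 1.85) and the FN1 points (0.689 to 0.841) lie on the same side of 1 in all 3 libraries. So do the CDH2 points, close to 1 (1.01 to 1.04). The wide intervals of SNAI1 and SNAI2 include 1.

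Set directly against each other, the ZSCAN5A siRNAs and si1 differed by less than 1.5-fold in each of the 9 genes with a value. The ZEB1 level was 1.14 times as high with the ZSCAN5A siRNAs as with si1, and the log2 difference for ZEB2 was 0.32. CDH1 and EPCAM stood at 0.855 and 0.865 of the si1 level, and SNAI1 and SNAI2 at 0.720 and 0.694. These ratios compare the mean of 2 libraries with 1 library, and these differences were not tested. Both comparisons above use the same control library, so a feature of that library would enter both.

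The genes that act with or upstream of these were grouped by role in 6 lists of 160 genes, of which 127 reached the expression limit in each comparison. With the ZSCAN5A siRNAs, none of the 127 was past the limit upward and 6 (4.72%) were past it downward, beside 3.11% of all genes. With si1, 1 (0.787%) was past it upward, beside 0.844%, and 5 (3.94%) downward, beside 3.17%. TGFBR3 and EP300 were past it downward in both. Both comparisons use the same control library, and the share of all genes past it in both was not counted, so nothing is read from this overlap. With si4 alone 17 of the 127 (13.4%) were past the limit downward, beside 5.21% of all genes, and with si5 alone 1 (0.787%) was, beside 2.95%. After the median of genes of like length and GC content was removed, 2 of the 6 downward calls with the ZSCAN5A siRNAs were past the limit, GSC and TGFBR3. With si1 RCOR1 alone of the 5 was, together with 1 gene not called before.

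Of the 26 TGF-beta signalling genes tested, 1 was past the limit downward with the ZSCAN5A siRNAs, where 3.11% of all genes were, and 2 were with si1, beside 3.17%. With the ZSCAN5A siRNAs all 26 were below the control, where 53.3% of all genes were, with a median log2 ratio of -0.26 beside -0.02 for all genes. This count is for the mean of si4 and si5. With si4 alone the highest of the 26 was above the control (log2 ratio 0.02), and with si5 alone the highest was at 0.12. With si1, 22 of 26 were below the control, beside 51.5%, with a median of -0.17 beside -0.01. Less the median of genes of like length and GC content, 20 and 17 of the 26 were lower, with medians of -0.11 and -0.06, where 6184 of 12389 and 6159 of 12344 of all matched genes were lower. TGFBR3, the coreceptor betaglycan, had 3.29, 7.10, 6.05 and 9.26 FPKM in si4, si5, si1 and the control. Its log2 ratio of -0.83 with the ZSCAN5A siRNAs came mostly from si4 (-1.49), as si5 alone (-0.38) was not past the limit. ACVR2B, an activin receptor, was past the limit downward with si1 (3.99 against 6.50 FPKM, log2 ratio -0.70). With the length and GC median removed, ACVR2B (-0.47) and TGFBR3 (-0.56) were inside the limit with si1.

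Among mesenchymal adhesion, matrix and cytoskeleton genes, 23 of 26 tested were below the control with the ZSCAN5A siRNAs and 21 of 26 with si1, with median log2 ratios of -0.29 and -0.21, where 53.3% and 51.5% of all genes were below it. Of the 26, 2 were past the limit downward with the ZSCAN5A siRNAs, beside 3.11% of all genes, and 1 was past it upward with si1, beside 0.844%. Less the length and GC median, 21 and 18 were lower, with medians of -0.17 and -0.08. The collagen gene COL5A1 had 0.990, 1.23, 1.31 and 1.82 FPKM in si4, si5, si1 and the control. FBN1, which encodes the microfibril protein fibrillin, had 1.26, 1.58, 1.95 and 2.18 FPKM. Both were past the limit downward with the ZSCAN5A siRNAs (log2 ratios -0.71 and -0.62), and with si5 alone neither was (-0.56 and -0.46). Both were inside it less the length and GC median (-0.30 and -0.37). S100A4, a calcium-binding protein gene of motile mesenchymal cells, had 8.45 FPKM with si5 and 8.44 with si1, against 5.28 with si4 and 5.06 in the control. It was past the limit upward with si1 (log2 ratio 0.74), and inside it less the length and GC median (0.55).

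Of the other EMT transcription factors, all 8 tested were below the control with the ZSCAN5A siRNAs (median log2 ratio -0.15) and 5 of 8 with si1 (-0.05), where 53.3% and 51.5% of all genes were. The first count is for the mean of si4 and si5. With si4 alone the highest of the 8 was above the control (log2 ratio 0.11), and with si5 alone the highest was at -0.05. Past the limit downward were 2 of the 8 with the ZSCAN5A siRNAs, beside 3.11% of all genes, and none with si1, beside 3.17%. SOX9, a factor of progenitor and chondrocyte development, had 5.27, 6.02, 6.05 and 8.51 FPKM in si4, si5, si1 and the control, and GSC, the goosecoid homeobox gene, had 1.02, 1.18, 1.22 and 1.72 FPKM. Both were past the limit downward with the ZSCAN5A siRNAs (log2 ratios -0.59 and -0.65), with si4 as the larger part (-0.69 and -0.76) and si5 within it (-0.50 and -0.54). SOX9 less the length and GC median (-0.51) was inside the limit, and GSC (-0.80) was past it. Less the length and GC median, 5 of the 8 were lower with the ZSCAN5A siRNAs and 4 of 8 with si1.

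Of 8 epithelial transcription factors and splicing regulators tested, none was past the limit, where 3.79% and 4.01% of all genes were in the 2 comparisons. All 8 were below the control with the ZSCAN5A siRNAs (median log2 ratio -0.26) and 7 of 8 with si1 (-0.13), beside 53.3% and 51.5% of all genes. The lowest was ESRP1, an epithelial splicing regulator that ZEB1 is known to repress, with 1.30, 1.73, 1.52 and 2.17 FPKM in si4, si5, si1 and the control (log2 ratio -0.52 in both comparisons). With si4 alone ESRP1 was at -0.74, past the limit, and with si5 alone at -0.32, inside it. GRHL1, a paralogue of GRHL2, had 3.36, 4.76, 4.78 and 5.23 FPKM in si4, si5, si1 and the control. Its log2 ratio was -0.64 with si4, -0.14 with si5 and -0.13 with si1. FOXA1, a forkhead factor of endoderm, had log2 ratios of -0.31 with the ZSCAN5A siRNAs and -0.30 with si1. KLF5, a Krueppel-like factor of epithelia, had -0.24 and -0.30 in the 2 comparisons. OVOL2, a repressor of ZEB1 in epithelia, had -0.01 and 0.08. With si5 alone OVOL2 was above the control (log2 ratio 0.10), so the count of 8 below it holds for the mean of si4 and si5. Less the length and GC median, 8 of 8 and 7 of 8 were lower, with medians of -0.23 and -0.12.

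Epithelial adhesion, junction and polarity genes had medians near the control, with members on both sides. Of 35 tested, 20 were below it with the ZSCAN5A siRNAs and 22 with si1, with medians of -0.03 and -0.05 and log2 ratios from -0.54 to 0.22 and from -0.64 to 0.43. Of all genes, 53.3% and 51.5% were below it. Past the limit was 1 of the 35, downward with si1, where 3.17% of all genes were. It was CGN, the tight junction protein cingulin, with 4.67, 4.45, 4.14 and 6.44 FPKM in si4, si5, si1 and the control (log2 ratio -0.64 with si1 and -0.50 with the ZSCAN5A siRNAs). With si1 it was inside the limit less the length and GC median (-0.46). Less the length and GC median, 15 and 20 of the 35 were lower, with medians of 0.02 and -0.03.

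Of 24 corepressors and coactivators of the ZEB and SNAI proteins, 16 were below the control with the ZSCAN5A siRNAs and 18 with si1, with medians of -0.08 and -0.14, where 53.3% and 51.5% of all genes were below it. Of the 24, 1 was past the limit downward with the ZSCAN5A siRNAs and 2 with si1, beside 3.11% and 3.17% of all genes. EP300, the acetyltransferase p300, had 7.22, 6.86, 6.84 and 10.96 FPKM in si4, si5, si1 and the control. It was past the limit downward with each siRNA singly (log2 ratios -0.60, -0.68 and -0.68), as were 146 of 12890 genes (1.13%). Less the median of genes of like length and GC content, EP300 was at -0.39 and -0.45, inside the limit. RCOR1, the corepressor CoREST, was past the limit with si1 (3.85 against 6.73 FPKM, log2 ratio -0.80). Less the length and GC median, 12 and 15 of the 24 were lower, with medians of 0.00 and -0.02.

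**Figure D4:**
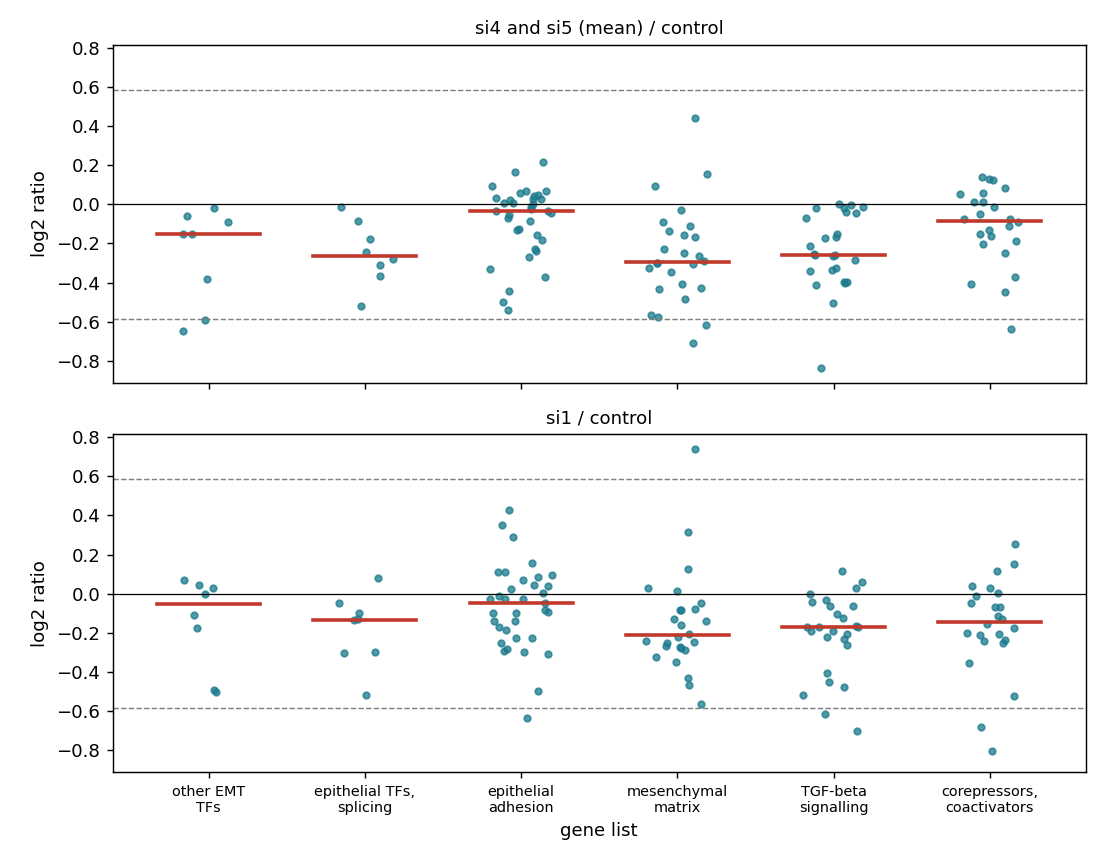
Log2 ratio to the control of each tested gene in 6 lists by role, 1 point per gene, with the list median as a red bar and dashed lines at 1.5-fold either way. The medians of the mesenchymal matrix list (-0.29 and -0.21) and the TGF-beta list (-0.26 and -0.17) lie below the all-gene medians of -0.02 and -0.01, and that of the epithelial adhesion list (-0.03 and -0.05) lies near them.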

How the data were processed

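The deposited table gives FPKM values for 4 libraries of HEK-293 cells. Per the labels the authors trimmed, aligned and quantified reads with CASAVA 1.8.2, Trimmomatic 0.30, TopHat2 2.1.0 and Cufflinks 2.2.1 on hg19. The labels and the study's methods name different mRNA kits, both stranded, and the strand setting of the counting is not given in the sources used here. FPKM values were used as deposited, and 0 other per-sample columns were present.

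The 10 genes and all lists were chosen with earlier results of these data known. All 10 are named, with ZSCAN5A and ZSCAN5B. Named in other lists are the genes past 1.5-fold in either comparison or, where a list had none or over 5, the 3 with the largest change each way. The 5 profiles most like ZEB1 are also named.

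The mean of si4 and si5, or si1, was divided by the control without a pseudocount. Fragments were read from whole-number proportions of the 4 values (numbers up to 80, set after looking at the data, tolerance 0.05%), present in 73.4% of 1745 low rows, or else estimated from length and depth. Length, GC content and UTRs came from GENCODE 44 lifted to GRCh37, with older symbols matched through RefSeq synonyms (95.4% and 95.5% of tested genes). Length and GC medians used 10 by 5 bins. On simulated data for the ZSCAN5A comparison (17941 genes), 200 of 200 changed genes passed the fold rule with 3 others, and limma called 200 with 5 others among 10958. The simulated fragments held counting error alone, and the changes were 2-fold in genes of at least 5 FPKM. These counts therefore do not apply to smaller changes or to libraries that also vary between cultures. Intervals from estimated fragments were not simulated. Alternatives covered the expression limit, pseudocount, scaling, fold limit, length and GC, each ZSCAN5A siRNA alone, limma and the likeness limit. Software was Python 3.11.15, NumPy 2.4.6, pandas 2.3.3, SciPy 1.17.1, matplotlib 3.10.9, R 4.3.3 and limma 3.58.1.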

Additional observations from a re-analysis of the deposited data

Results flagged for a closer look

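In CDH1 and ZEB2, 2 of the 7 genes tested, both ZSCAN5A libraries lay on one side of the control and the library labelled ZSCAN5B knockdown on the other, as they did in 10.1% of 12878 genes tested in both comparisons. The same was seen in SNAI1, which was under 1 FPKM and not tested. CDH1 was below the control with si4 and si5 and above it with si1, with a log2 ratio of 0.10, and the counting intervals of the si4 and si1 ratios include 1. Less the median of genes of like length and GC content, its log2 ratio was 0.00 with the ZSCAN5A siRNAs and 0.20 with si1. SNAI1 was likewise below the control with si4 and si5 and above it with si1, with a log2 ratio of 0.19 from 47 to 78 fragments in each library, and all 3 counting intervals include 1. ZEB2 was above the control with si4 and si5 and below it with si1, with a log2 ratio of -0.15. The difference between the siRNAs was not tested in any of the 3.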

How the results depend on the processing

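No paired analysis was possible because each siRNA and the control is 1 library. The log2 ratio of ZEB1 was positive in every alternative. All alternatives reuse the same libraries and the list was chosen on this rise, so the sign is a description and not a test. With the ZSCAN5A siRNAs it was 0.63 with a pseudocount of 1 FPKM, 0.63 with limma on log2(FPKM + 1), and 0.66 to 0.88 with 1 ZSCAN5A siRNA left out. With si1 it was 0.47 with a pseudocount of 1 FPKM. The count of the 10 genes past the limit upward fell from 1 to 0 with a fold limit of 2 in both comparisons, with limma and Benjamini-Hochberg adjustment for ZSCAN5A (1 control library and 1 residual degree of freedom, 10 of 13044 genes called, all listed at 0 in a library; at an unadjusted p under 0.05 1618 genes), and, for si1, with a pseudocount of 0.1 or 1 FPKM or the length and GC median removed. A looser limit of 0.32 on the log2 scale added 1 downward, FN1, in both. For the 6 lists with the ZSCAN5A siRNAs, the downward count was 3 with a limit of 5 FPKM, 10 with no expression limit, 1 with a pseudocount of 1 FPKM, 33 and 0 with the looser limit and a fold limit of 2, 2 with the length and GC median removed, 0 with limma, and 1 to 17 with 1 siRNA left out. The upward count was 4 with no expression limit, 1 with the looser limit, and 0 to 1 with 1 siRNA left out. With si1 the downward count was 8 with no expression limit, 3 with a pseudocount of 1 FPKM, 20 and 0 with the looser limit and a fold limit of 2, and 2 with the length and GC median removed. The upward count was 5, 3 and 0 with no expression limit and those same limits, and 0 with length and GC removed. The causes were not tested, apart from pseudocounts shrinking low values. Of the 5 genes most like ZEB1, 3 were shared with a limit of 5 FPKM. Scaling moved the median of all genes by at most 0.04 on the log2 scale. Of 92 values of 8 other genes, 5 changed sign, for SNAI2 (0.01 with median-ratio scaling, 0.09 with si4 alone), CDH1 (0.00 with length and GC removed), EPCAM (0.02 with si5 alone) and TWIST1 (0.02 with si4 alone).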
